A study of Homo sapiens with 12 samples.

Results

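The genes described here are the proteasome subunits and their partners with symbols of the PSMA to PSMG series, in regrown cultures of the leukaemia line HEL. Every gene whose identifier was PSM, a letter from A to G and a number was taken, by name alone, and 48 of the 26481 genes in the table met this rule. The family itself and the tests were chosen with earlier results of these data known. They comprise 8 alpha (PSMA) and 8 beta (PSMB) subunits of the core, 3 immunoproteasome subunits (PSMB8, PSMB9, PSMB10), 6 ATPases (PSMC), 14 non-ATPase genes (PSMD), 4 activators (PSME), the inhibitor PSMF1 and 4 assembly factors (PSMG). HEL is an established human erythroleukaemia line, here carrying DNA barcodes that mark clones. Cultures were kept with 0.1 µM dimethyl sulfoxide and no drug (NT, n = 2), or were exposed for 72 to 74 h to 1.8 µM doxorubicin (Doxo, n = 3), to doxorubicin with 6 µM cytarabine (Doxo+Cyta, n = 3), or to both of these with 0.1 µM decitabine (Doxo+Cyta+DAC, n = 4). Live cells were then washed free of drug and regrown for about 30 days before RNA was taken, so the values describe the regrown populations and not cells under drug. Doxorubicin is an anthracycline that poisons topoisomerase, cytarabine a cytidine analogue that blocks DNA synthesis, and decitabine an inhibitor of DNA methylation. No group received decitabine alone, and the design text speaks of 3 untreated replicates where 2 are labelled.

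The proteasome degrades proteins that carry ubiquitin chains. Its core is a barrel of stacked rings, in which alpha subunits form the gate and PSMB5, PSMB6 and PSMB7 hold the active sites of the constitutive form. A regulatory particle at either end recognises the ubiquitin chain, removes it and threads the unfolded substrate into the barrel by means of the ATPases. Interferon replaces the 3 active subunits by PSMB8, PSMB9 and PSMB10, which changes the peptides offered to MHC class I molecules, and blood cells carry much of this form without stimulation. When proteasome activity is short, the transcription factor NFE2L1 raises the subunit genes together.

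Total counts ranged from 12763582 to 19106235 per library. Values are CPM, in which counts are divided by the TMM-scaled library size, unless RPKM, which divides by exon length too, is named, and values within a group are listed in the order of the replicate numbers. Of the 48 genes, 46 passed the filter on low counts and were tested with 14164 genes in all. The other 2 are tissue-restricted. PSMA8, an alpha subunit of the testis, had 1 count in each of 3 libraries and 0 in the others, and PSMB11, the beta subunit of the thymus cortex, had 0 in all 12, where 3 counts amount to 0.157 to 0.235 CPM. The libraries carried the erythroid and megakaryocytic markers of HEL, 16 of 17 at a mean of at least 10 CPM in every group, with a summed level of 7805 to 12930 CPM that was lowest in Doxo+Cyta+DAC (7805 to 10380 CPM, with CPM of 10020 or more in each library of the other groups). Markers of B cells, fibroblasts, epithelium and macrophages summed to at most 6.34 CPM in any library, and those of T cells to at most 55.7 CPM, of which CD2 alone had a mean of 10 CPM or more. Of the HEL list, 11 of 17 genes were called lower and 2 higher in Doxo+Cyta+DAC than in Doxo+Cyta, where 30.5% of all genes were lower and 29.8% higher. Over Doxo, 8 were lower and 2 higher (30.4% and 29.1% of all genes). Over NT, 5 were lower and 2 higher (23.7% and 24.9% of all genes). The part of this in the results that follow was not tested. A pair of libraries stood apart from the others of their groups. Over all genes, Doxo replicate 4 differed from replicates 5 and 6 by a chi-square per degree of freedom of 29.7 and 27.3, where replicates 5 and 6 differed from each other by 3.1. For Doxo+Cyta replicate 20 the values were 46.7 and 48.5, against 7.33 between replicates 19 and 22. The proteasome genes took part in the second of these: 42 of 46 lay above the other libraries' mean in replicate 20, with a median log2 difference of 0.32 where that of all genes was 0.04. In Doxo replicate 4 the count was 23 of 46. Of the NT libraries, replicate 1 was the higher for 41 of 46 genes, by a median of 0.11. Counts of called proteasome genes are given with and without Doxo replicate 4 and Doxo+Cyta replicate 20.

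Per exon length, the 46 genes spanned from 4.42 RPKM for PSMG4 to 364 RPKM for PSMA7, as means over the 12 libraries. PSMA7, PSMB4 (277 RPKM), PSMB1 (226 RPKM) and PSMB3 (172 RPKM) were the most abundant, all of them ring subunits without an active site of the constitutive core. Subunits that occur in equal number in the particle differed in mRNA per annotated exon length. The 7 tested alpha genes ran in NT from 26.9 RPKM (PSMA5) to 276 RPKM (PSMA7), and the 6 ATPase genes from 20.1 (PSMC2) to 90.3 RPKM (PSMC5). The annotated lengths set part of these ranges. They were 3864 bases for PSMA5 and 1032 for PSMA7, with NT means of 104 and 285 CPM. For PSMC2 and PSMC5 they were 3210 and 1600 bases, with 64.4 and 144.5 CPM. Which of the annotated exons were in use was not tested. In NT the immunoproteasome subunit PSMB9 stood at 122 RPKM against 70.7 RPKM for PSMB6, its constitutive counterpart, PSMB8 at 64.8 against 41.1 RPKM for PSMB5, and PSMB10 at 40.8 against 55.6 RPKM for PSMB7. The assembly factor PSMG4 and the chaperones PSMD5 (10.3 RPKM) and PSMD9 (14.4 RPKM) stood lowest over the 12 libraries. Neighbours in this order often did not differ beyond their spread: in NT, PSMC1, PSMC4 and PSMC3 lay at 56.9, 57.0 and 57.1 RPKM. For PSMB3, PSMB8 and PSMB9 the length of the copy on the primary chromosome was used, because the deposited length sums the copies on 2, 8 and 8 contigs. How the counting shared fragments among these copies is uncertain, and so are the RPKM of these genes.

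**Figure D1:**
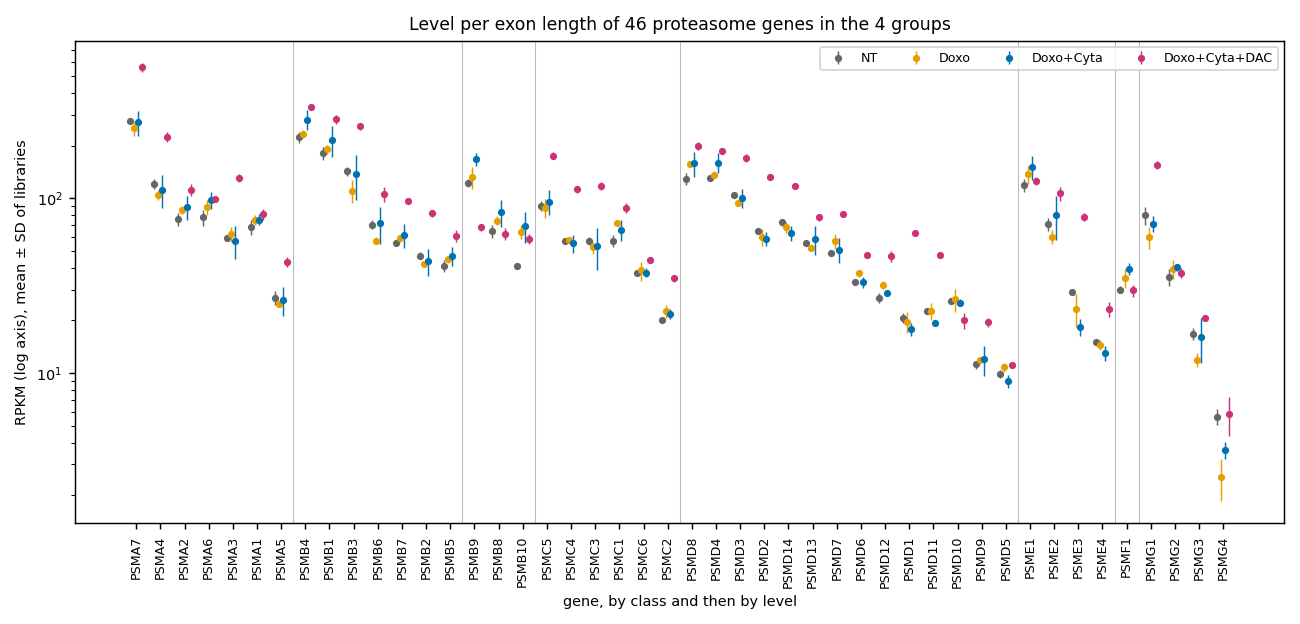
Level of the 46 tested proteasome genes in RPKM (log axis) by class and then by mean level, as mean ± SD of the libraries of NT (n = 2), Doxo (n = 3), Doxo+Cyta (n = 3) and Doxo+Cyta+DAC (n = 4). Levels run from 4.42 RPKM for PSMG4 to 364 RPKM for PSMA7 over the 12 libraries, and Doxo+Cyta+DAC lies highest for most genes outside the immunoproteasome.

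Most proteasome genes rose in the cultures regrown after the regimen with decitabine. The 48 genes together took 0.781% ± 0.0200 of all counts after Doxo+Cyta+DAC (SD, n = 4). The share was 0.516% ± 0.0194 for NT (n = 2), 0.479% ± 0.0147 for Doxo (n = 3) and 0.510% ± 0.0489 for Doxo+Cyta (n = 3), and the lowest Doxo+Cyta+DAC library (0.766%) lay above the highest of the rest (0.566%, Doxo+Cyta replicate 20). In bulk RNA, a change in the share of cells with a given level and a change of RNA per cell cannot be told apart. The labels call the libraries biological replicates per treatment, and p-values measure the spread between them. At an adjusted p under 0.05, 35 of 46 genes were higher and 2 lower in Doxo+Cyta+DAC than in NT, where 24.9% of all 14164 genes were higher and 23.7% lower. Against Doxo, 35 were higher and 2 lower (29.1% and 30.4% of all genes). Against Doxo+Cyta, 34 were higher and 4 lower (29.8% and 30.5% of all genes). The median log2 fold change of the 46 genes was 0.62, 0.65 and 0.60 in these comparisons, and that of all genes 0.02, -0.01 and 0.00. These comparisons share the Doxo+Cyta+DAC libraries and are not independent: 32 genes were called higher in each of them, PSMB9 and PSMD10 lower in each, and PSMA1, PSMC6, PSME1 and PSMG2 in none. Of the calls, 30 of 37, 35 of 37 and 30 of 38 were kept in each of 20 other settings of the fit, leaving out each library in turn among them, and none changed sign. Without both libraries that stood apart, an alternative added after the data were seen, 38 were higher and 2 lower than in NT, 35 and 6 than in Doxo, and 37 and 4 than in Doxo+Cyta. The shares of all genes rose as well, to 30.1% higher and 30.6% lower, 33.9% and 34.1%, and 33.3% and 33.5%.

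**Figure D2:**
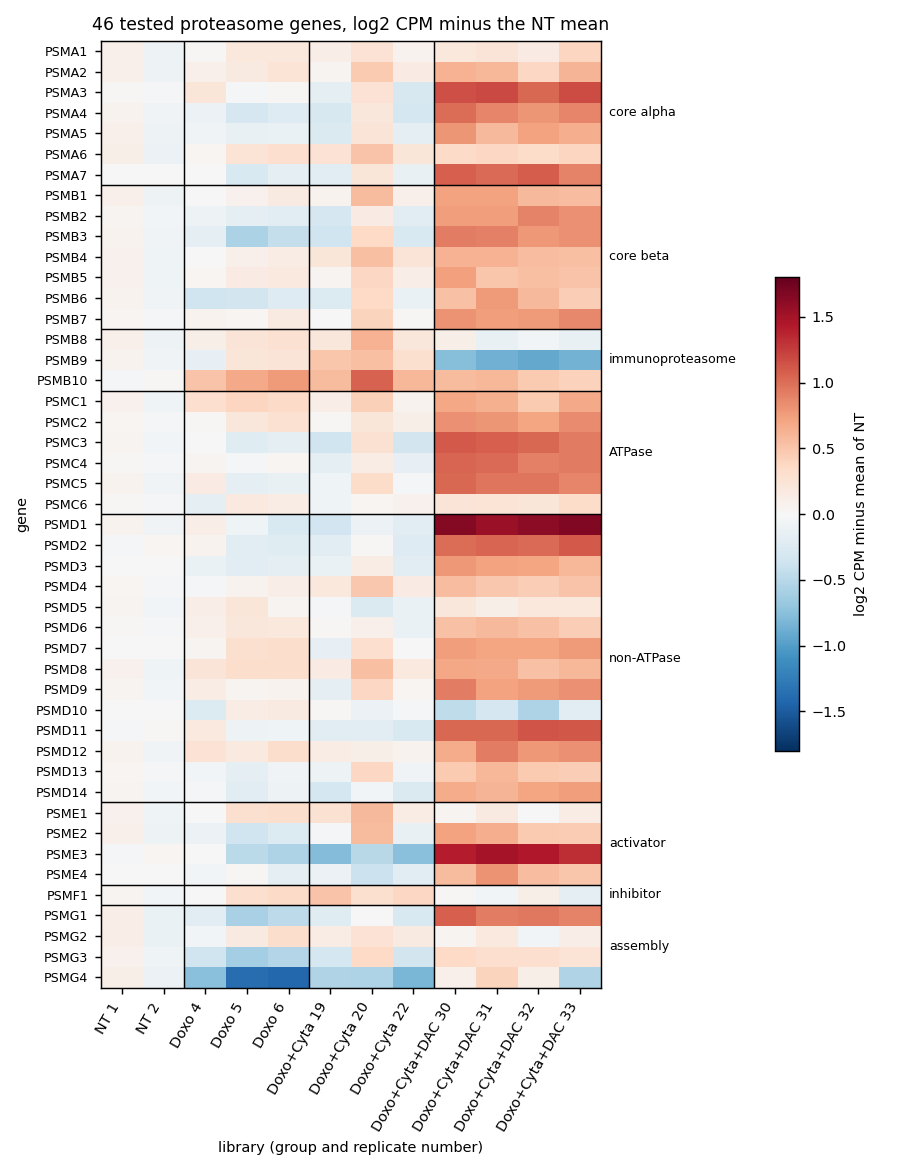
Log2 CPM minus the mean of NT for the 46 tested proteasome genes (y axis, grouped by class) in the 12 libraries (x axis, grouped by treatment), in red where higher and blue where lower. The 4 Doxo+Cyta+DAC libraries are red for most genes, with PSMB9 and PSMD10 blue, and Doxo+Cyta replicate 20 is redder than the other 2 libraries of its group.

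**Figure D3:**
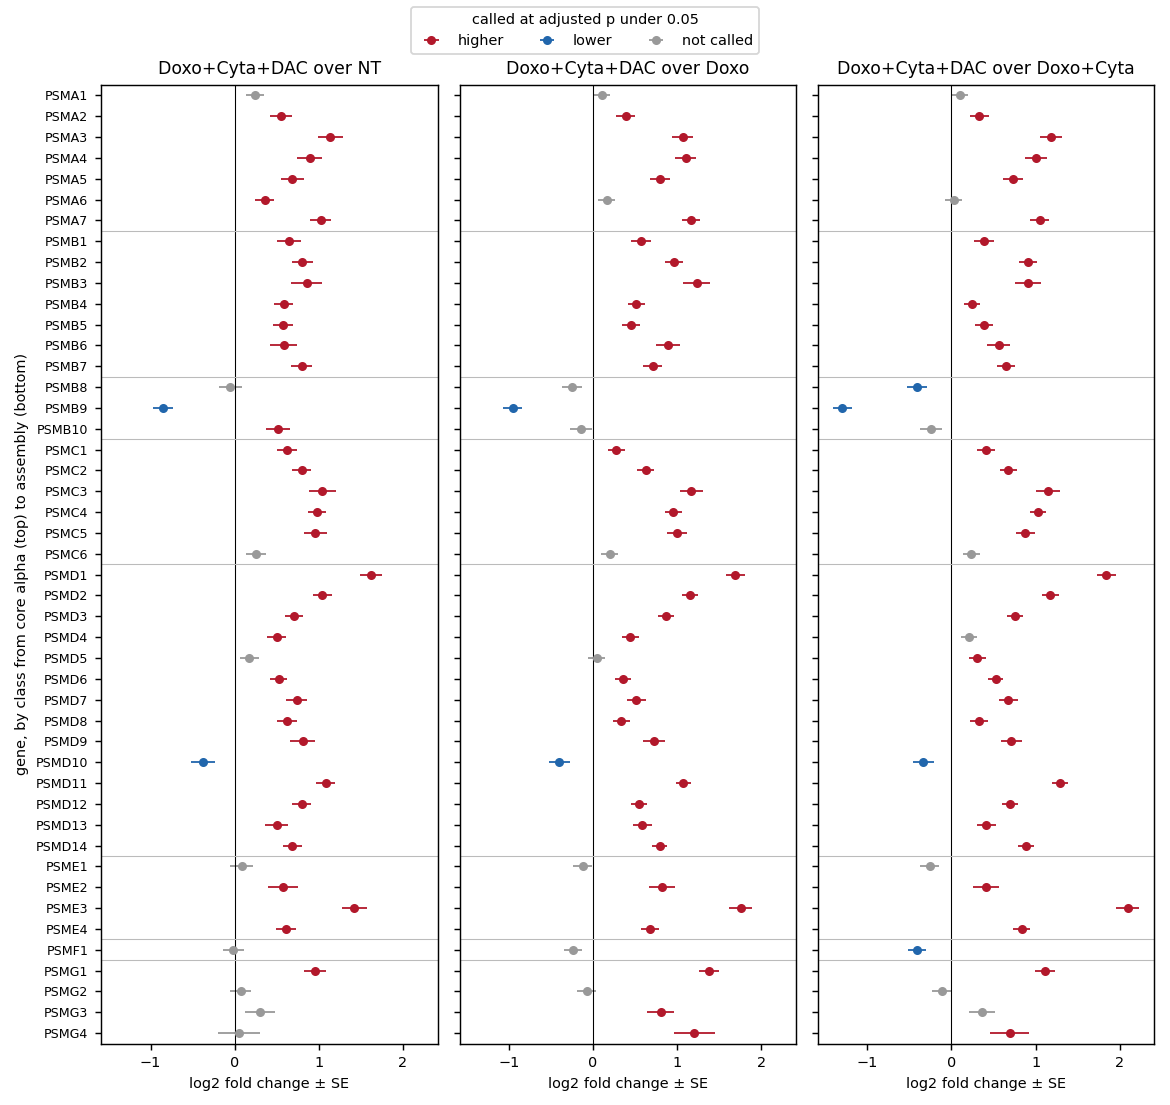
Log2 fold change ± SE (x axis) of each proteasome gene (y axis) for Doxo+Cyta+DAC over NT, over Doxo and over Doxo+Cyta, with genes at an adjusted p under 0.05 in red (higher) or blue (lower) and the rest in grey. The points of PSMD1 and PSME3 lie farthest to the right in each panel and that of PSMB9 farthest to the left.

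Over all 12 libraries, most of the genes varied together. The correlation of each gene's log2 CPM with the mean of the others had a median of 0.92 over the 12 libraries and passed 0.9 for 28 of 46 genes, a value that the Doxo+Cyta+DAC libraries set in large part, since over the 8 libraries without decitabine the median was 0.66 and 4 genes passed 0.9. PSMC3 (0.99), PSMB7 (0.99) and PSMC5 (0.99) followed the rest most closely over the 12 libraries. Negative values were found for PSMB9 (-0.87), PSMD10 (-0.82), PSMF1 (-0.58), PSMB8 (-0.42), PSME1 (-0.15) and PSMG2 (-0.08). Over the 8 libraries without decitabine the exceptions were others in part: PSMB8 (0.76) and PSME1 (0.64) then followed the rest, and negative values were found for PSME4 (-0.69), PSMD5 (-0.57), PSMD10 (-0.35), PSMD11 (-0.15), PSMF1 (-0.10) and PSME3 (-0.02). The 8 libraries include Doxo+Cyta replicate 20, in which 42 of 46 genes lay above the mean of the other libraries of its group. No correlation was computed without that library, so its part in these values was not tested. The libraries share group and depth, so these correlations describe the set and carry no test.

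Since the genes moved together, the 250 bases before their start sites were searched for short motifs on both strands, in the RefSeq promoters of GRCh38.p14, which held 42 of the 48 genes (PSMA7, PSMB1, PSMB6, PSMB7, PSMD4 and PSMG3 were the others). The letters TGACNNNGC, the core of the antioxidant response element bound by NFE2L1 and NFE2L2, occurred in 13 of 42 genes (31.0%), in 13.2% of all 27305 genes with a promoter and in 16.0% of the tested ones. Of these 13, 10 were higher and 1 lower in Doxo+Cyta+DAC than in Doxo+Cyta, at a median log2 fold change of 0.71. Of the 27 tested genes without it, 20 were higher and 3 lower, at a median of 0.52. Over NT, 9 of the 13 with the motif and 21 of the 27 without it were higher, and over Doxo 9 of 13 and 20 of 27. Of all tested genes, 29.8% were higher and 30.5% lower over Doxo+Cyta, and 24.9% and 29.1% were higher over NT and Doxo. Calls among all tested genes that hold the motif were not counted. PSMD1, PSMD11 and PSME3 had no match in this window. CCAAT, the NF-Y box, occurred in 45.2% of the genes, 37.0% of all promoters and 41.5% of those of tested genes. For the GC box GGGCGG the shares were 61.9%, 46.2% and 72.8%, so that the proteasome genes lay above all promoters and below those of tested genes. They were 16.7%, 8.09% and 7.71% for the STAT motif TTCNNNGAA and 11.9%, 8.41% and 7.54% for the interferon motif GAAANNGAA, with overlapping matches counted separately. The following windows show the antioxidant motif in capitals with 20 bases on either side, read on the strand of the gene, so that capitals ending in GTCA are a match on the opposite strand, first for 5 genes called higher in every comparison of Doxo+Cyta+DAC, then for PSMB9, called lower in each, and for PSME1 and PSMG2, called in none.
PSMB3 (chr17:38752617-38752665, plus strand): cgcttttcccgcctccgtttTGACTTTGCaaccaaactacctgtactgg
PSMD12 (chr17:67366714-67366762, minus strand): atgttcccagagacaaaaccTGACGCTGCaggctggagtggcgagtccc
PSMD9 (chr12:121888668-121888716, plus strand): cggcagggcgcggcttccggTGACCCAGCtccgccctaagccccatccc
PSME4 (chr2:53970999-53971047, minus strand): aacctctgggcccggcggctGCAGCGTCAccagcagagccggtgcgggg
PSMG1 (chr21:39183606-39183654, minus strand): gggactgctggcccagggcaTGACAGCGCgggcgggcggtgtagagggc
PSMB9 (chr6:32854024-32854072, plus strand): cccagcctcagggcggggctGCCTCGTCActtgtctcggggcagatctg
PSME1 (chr14:24136088-24136136, plus strand): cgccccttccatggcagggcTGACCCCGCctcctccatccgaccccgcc
PSMG2 (chr18:12658679-12658727, plus strand): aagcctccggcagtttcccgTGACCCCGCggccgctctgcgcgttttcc
The match begins 104 bases before the start site in PSMB3, 165 in PSMD12, 102 in PSMD9, 34 in PSME4, 183 in PSMG1, 148 in PSMB9, 86 in PSME1 and 39 in PSMG2. None of these windows overlaps an exon of the deposited annotation. The list is not complete. PSMA4 and PSME2, also called higher in every comparison, held matches in windows clear of exons too. PSMD9 held a second match, 149 bases before its start site. A match is a description of the letters and not of binding.

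Of the core, all 7 tested constitutive beta genes were higher in Doxo+Cyta+DAC in each of the 3 comparisons. Of the 7 tested alpha genes, 6, 5 and 5 were higher than in NT, Doxo and Doxo+Cyta. The shares of all genes called higher were 24.9%, 29.1% and 29.8%. PSMA7 (chromosome 20), the most abundant alpha subunit, measured 287 and 283 CPM in NT, 283, 236 and 256 after Doxo, 250.1, 331 and 259 after Doxo+Cyta and 602, 579, 606 and 528 after Doxo+Cyta+DAC. Its Doxo+Cyta+DAC libraries were all well above the rest, and its log2 fold change of Doxo+Cyta+DAC was 1.02 ± 0.13 (SE; adjusted p = 3.56e-05, edgeR) over NT, 1.16 ± 0.11 (SE; adjusted p = 1.89e-06, edgeR) over Doxo and 1.05 ± 0.11 (SE; adjusted p = 3.17e-06, edgeR) over Doxo+Cyta. PSMA3 and PSMA4, further gate ring subunits, rose by a similar amount, with log2 fold changes of 1.14, 1.06 and 1.19 for PSMA3 and 0.89, 1.10 and 1.00 for PSMA4 over NT, Doxo and Doxo+Cyta. PSMA1 and PSMA6 moved least. PSMA1 stood at 141 ± 13.2 CPM in NT and 166 ± 12.4 CPM in Doxo+Cyta+DAC, and was called in no comparison. PSMA6 was called higher over NT only (0.35 ± 0.12, SE, adjusted p = 0.0237, edgeR), a call that was lost in 3 of 20 other settings, among them the fit without NT replicate 2 (adjusted p = 0.249). Among the beta rings, PSMB2 and PSMB3, which hold no active site, showed the largest log2 fold changes over Doxo+Cyta (0.91 ± 0.11 and 0.91 ± 0.16) and PSMB4 the smallest (0.25 ± 0.10). PSMB4 was still called at an adjusted p of 0.0403 by edgeR, in 7 of the 20 other settings. Its libraries overlapped, since replicate 20 of Doxo+Cyta reached 299.8 CPM and replicate 33 of Doxo+Cyta+DAC 298 CPM.

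In Doxo+Cyta+DAC the active subunits of the constitutive form rose. Their interferon-inducible counterparts did not rise as much, and of these only PSMB9 was called lower in each comparison. PSMB5 (chromosome 14), which cleaves after hydrophobic residues, measured 63.0 and 56.5 CPM in NT, 61.1, 66.3 and 67.2 after Doxo, 61.9, 77.1 and 64.8 after Doxo+Cyta and 99.2, 84.7, 86.7 and 85.0 after Doxo+Cyta+DAC. PSMB8 (chromosome 6, in the MHC region), which takes its place in the immunoproteasome, measured 122 and 108 CPM in NT, 123, 135 and 138 after Doxo, 132, 177 and 132 after Doxo+Cyta and 124, 105, 110.4 and 104 after Doxo+Cyta+DAC. PSMB5 was higher in each Doxo+Cyta+DAC library than in any other, whereas the PSMB8 values of Doxo+Cyta+DAC overlapped those of NT and Doxo and lay below those of Doxo+Cyta. The log2 fold change of PSMB5 in Doxo+Cyta+DAC was 0.57 ± 0.12 (SE; adjusted p = 0.00180, edgeR) over NT, 0.45 ± 0.11 (SE; adjusted p = 0.00244, edgeR) over Doxo and 0.39 ± 0.11 (SE; adjusted p = 0.00641, edgeR) over Doxo+Cyta. PSMB8 was called lower only against Doxo+Cyta, at -0.41 ± 0.12 (SE; adjusted p = 0.00852, edgeR), with -0.05 over NT (adjusted p = 0.772, edgeR) and -0.25 over Doxo (adjusted p = 0.0801, edgeR). Of the exon bases of PSMB8, 12.7% are overlapped by PSMB8-AS1, whose fragments cannot be told apart without strand.

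PSMB9 (chromosome 6, 32854161 to 32859851 in GRCh38), next to the peptide transporter gene TAP1 with which it shares a promoter region, showed the strongest fall of all 46 genes. It measured 134 and 123 CPM in NT, 115, 149.5 and 150.5 after Doxo, 181, 187 and 157 after Doxo+Cyta and 75.2, 70.6, 68.0 and 71.4 after Doxo+Cyta+DAC. Each Doxo+Cyta+DAC library was below each other library, and the log2 fold change of Doxo+Cyta+DAC was -0.85 ± 0.12 (SE; adjusted p = 8.86e-05, edgeR) over NT, -0.96 ± 0.11 (SE; adjusted p = 6.96e-06, edgeR) over Doxo and -1.30 ± 0.11 (SE; adjusted p = 4.60e-07, edgeR) over Doxo+Cyta. TAP1 fell alongside it, with log2 fold changes of -0.64, -1.19 and -1.19 over NT, Doxo and Doxo+Cyta. PSMB6, the constitutive subunit in the same position, measured 64.3 and 59.0 CPM in NT, 48.0, 49.0 and 52.3 after Doxo, 51.7, 79.1 and 56.9 after Doxo+Cyta and 88.6, 104, 92.2 and 83.9 after Doxo+Cyta+DAC. Its Doxo+Cyta+DAC libraries were again the highest, with log2 fold changes of 0.58 ± 0.16 over NT, 0.89 ± 0.14 over Doxo and 0.56 ± 0.14 over Doxo+Cyta (adjusted p = 0.00757, 9.65e-05 and 0.00290, edgeR), of which the first was not called without NT replicate 2 (adjusted p = 0.0834).

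PSMB10 (chromosome 16) differed from both, since it was raised after each regimen relative to NT. It measured 40.6 and 41.5 CPM in NT, 58.6, 66.1 and 69.8 after Doxo, 60.9, 85.5 and 62.1 after Doxo+Cyta and 61.1, 62.4, 56.7 and 54.5 after Doxo+Cyta+DAC. Both NT libraries were below all 10 others, and the Doxo+Cyta+DAC libraries fell within or below the range of the other treated groups. Over NT its log2 fold change was 0.66 ± 0.15 (SE; adjusted p = 0.0169, edgeR) in Doxo, 0.76 ± 0.15 (SE; adjusted p = 0.0352, edgeR) in Doxo+Cyta and 0.52 ± 0.15 (SE; adjusted p = 0.00988, edgeR) in Doxo+Cyta+DAC, and against Doxo and Doxo+Cyta it was -0.14 and -0.24, neither called. Each of these 3 calls over NT was lost when either NT library was left out, with adjusted p up to 0.155, 0.413 and 0.0819 by edgeR, and those of Doxo and Doxo+Cyta were also lost without Doxo replicate 5 or 6. The call in Doxo+Cyta was lost in 8 of 20 other settings in all, which include leaving out Doxo+Cyta replicate 19 or 22 or Doxo+Cyta+DAC replicate 33 and the fit of only the groups compared. PSMB7, its constitutive counterpart, measured 57.8 and 55.0 CPM in NT, 59.2, 57.7 and 63.1 after Doxo, 56.6, 74.2 and 57.1 after Doxo+Cyta and 98.8, 95.2, 95.8 and 102 after Doxo+Cyta+DAC. PSMB7 was highest in the Doxo+Cyta+DAC libraries, by 0.80 ± 0.13 (SE; adjusted p = 1.90e-04, edgeR) over NT and 0.65 ± 0.11 (SE; adjusted p = 1.62e-04, edgeR) over Doxo+Cyta, though 38.3% of its exon bases are overlapped by LOC100129034, whose fragments cannot be told apart without strand.

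**Figure D4:**
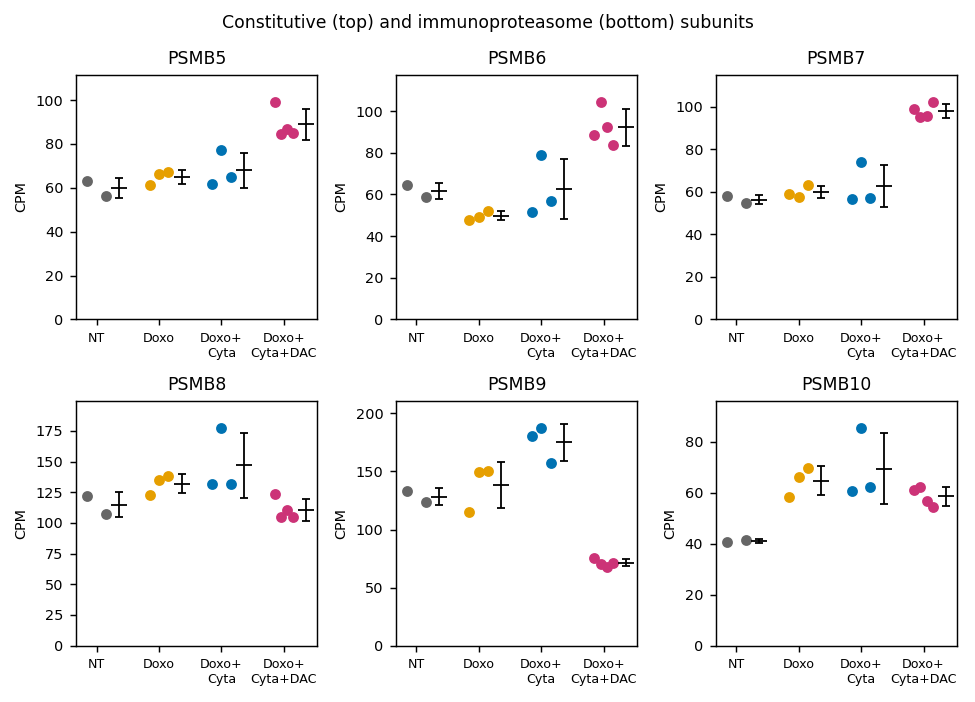
CPM (y axis, from 0) of the constitutive active subunits PSMB5, PSMB6 and PSMB7 and of PSMB8, PSMB9 and PSMB10 of the immunoproteasome in each library (points) by group (x axis), with mean ± SD in black. The upper row is highest in Doxo+Cyta+DAC, PSMB9 is lowest there, and the single high Doxo+Cyta point in most panels is replicate 20.

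The ratio of each immunoproteasome gene to its counterpart within a library does not depend on scaling, and was computed from counts per exon length with 0.5 counts added. The ratio of PSMB9 to PSMB6 was 1.73 and 1.74 in NT, 2.00, 2.54 and 2.40 after Doxo, 2.91, 1.97 and 2.30 after Doxo+Cyta and 0.707, 0.563, 0.613 and 0.709 after Doxo+Cyta+DAC. By these counts, PSMB9 exceeded PSMB6 in 8 of 8 libraries without decitabine and was below it in 4 of 4 with it. PSMB8 and PSMB9 are listed on 8 contigs each. How the counting shared fragments among these copies is uncertain, and so is the level of their ratios. The ratio of PSMB8 to PSMB5 was 1.59 and 1.56 in NT, 1.65, 1.67 and 1.68 after Doxo, 1.75, 1.88 and 1.67 after Doxo+Cyta and 1.02, 1.01, 1.04 and 1.01 after Doxo+Cyta+DAC. The ratio of PSMB10 to PSMB7 was 0.708 and 0.762 in NT, 0.998, 1.15 and 1.12 after Doxo, 1.08, 1.16 and 1.10 after Doxo+Cyta and 0.624, 0.661, 0.598 and 0.537 after Doxo+Cyta+DAC. All 3 ratios were thus lower in each Doxo+Cyta+DAC library than in any other. On the log2 scale PSMB9 to PSMB6 was lower in Doxo+Cyta+DAC, with differences of -1.83 from Doxo and -1.87 from Doxo+Cyta, -0.71 and -0.79 for PSMB8 to PSMB5, and -0.85 and -0.89 for PSMB10 to PSMB7. Each of these 6 differences had p = 0.02857 in a two-sided exact permutation test of 4 against 3 libraries, the smallest that its 35 arrangements allow, and 0.02857 after adjustment over the 6. The comparison with 2 NT libraries was not tested in this way. The 6 tests share the Doxo+Cyta+DAC libraries and are independent neither of each other nor of the calls of the single genes. In both PSMB10 ratios, and in that of PSMB8 over Doxo, only the constitutive gene was called.

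In the regulatory particle, 5 of the 6 ATPase genes were higher in Doxo+Cyta+DAC in each comparison. The shares of all genes called higher were 24.9% over NT, 29.1% over Doxo and 29.8% over Doxo+Cyta. PSMC3, PSMC4 and PSMC5 changed most, with log2 fold changes over Doxo+Cyta of 1.15 ± 0.14, 1.03 ± 0.10 and 0.88 ± 0.12. PSMC4 measured 111 and 107 CPM in NT, 113, 108 and 112 after Doxo, 97.4, 120.3 and 98.5 after Doxo+Cyta and 224, 222, 205 and 209 after Doxo+Cyta+DAC, so that its Doxo+Cyta+DAC values were far above those of every other library. PSMC1 and PSMC2 rose less, by 0.41 ± 0.11 and 0.68 ± 0.10 over Doxo+Cyta, and the call of PSMC1 over Doxo (0.28 ± 0.11) held in 12 of 20 other settings. PSMC6 was the ATPase that was not called, at 0.25 ± 0.12 (SE; adjusted p = 0.0863, edgeR) over NT, 0.20 over Doxo and 0.24 over Doxo+Cyta. Its Doxo+Cyta+DAC libraries all lay above those of each other group. Of all genes, 34.2%, 29.7% and 29.0% lay above without overlap over NT, Doxo and Doxo+Cyta, so a lack of overlap is common at these group sizes. PSMC1 has 13 pseudogenes named after it, the most of the 17 genes that have any, and how the counting shared fragments with them is uncertain.

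PSMD1 (chromosome 2, 231056864 to 231172826 in GRCh38), the large scaffold of the base, was the gene with the smallest p of the set in every comparison with Doxo+Cyta+DAC. It measured 72.0 and 65.4 CPM in NT, 74.8, 64.9 and 56.8 after Doxo, 53.8, 64.0 and 59.5 after Doxo+Cyta and 216, 201, 209 and 218 after Doxo+Cyta+DAC. All 4 Doxo+Cyta+DAC libraries stood far above the other 8, and the log2 fold change of Doxo+Cyta+DAC was 1.62 ± 0.13 (SE; adjusted p = 1.46e-06, edgeR) over NT, 1.69 ± 0.11 (SE; adjusted p = 1.68e-07, edgeR) over Doxo and 1.84 ± 0.11 (SE; adjusted p = 5.62e-08, edgeR) over Doxo+Cyta. PSMD2, the second scaffold, measured 199 and 209 CPM in NT, 213, 179.7 and 175 after Doxo, 178, 206 and 174 after Doxo+Cyta and 408, 424, 413 and 437 after Doxo+Cyta+DAC. Its groups were separated in the same way, with log2 fold changes of 1.04 ± 0.11 (SE; adjusted p = 1.22e-05, edgeR) over NT, 1.15 ± 0.10 (SE; adjusted p = 8.31e-07, edgeR) over Doxo and 1.18 ± 0.10 (SE; adjusted p = 4.60e-07, edgeR) over Doxo+Cyta. PSMD4, a ubiquitin receptor of the base, moved less, with 0.50 ± 0.11 (SE; adjusted p = 0.00222, edgeR) over NT and 0.44 ± 0.10 (SE; adjusted p = 0.00130, edgeR) over Doxo. It was not called over Doxo+Cyta (0.21 ± 0.10, SE, adjusted p = 0.0683, edgeR).

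All 8 lid genes (PSMD3, PSMD6, PSMD7, PSMD8, PSMD11, PSMD12, PSMD13 and PSMD14) were higher in Doxo+Cyta+DAC in each comparison. Their median log2 fold changes were 0.70, 0.57 and 0.68 over NT, Doxo and Doxo+Cyta, where 24.9%, 29.1% and 29.8% of all genes were called higher. PSMD11 (chromosome 17, 32444463 to 32483319 in GRCh38), which braces the lid against the core, measured 89.3 and 91.5 CPM in NT, 102, 84.8 and 85.4 after Doxo, 79.6, 79.4 and 75.0 after Doxo+Cyta and 185, 184, 199 and 196 after Doxo+Cyta+DAC. Doxo+Cyta+DAC did not overlap any other group, and the log2 fold change of Doxo+Cyta+DAC was 1.08 ± 0.11 (SE; adjusted p = 6.98e-06, edgeR) over NT, 1.07 ± 0.09 (SE; adjusted p = 9.68e-07, edgeR) over Doxo and 1.29 ± 0.10 (SE; adjusted p = 1.88e-07, edgeR) over Doxo+Cyta. PSMD14, the deubiquitinase that strips the chain from the substrate, had log2 fold changes of 0.69, 0.79 and 0.89. The smallest in the lid over Doxo+Cyta was that of PSMD8, at 0.33 ± 0.11 (SE; adjusted p = 0.0152, edgeR), whose libraries overlapped those of Doxo+Cyta.

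The 3 PSMD genes that encode chaperones of base assembly, rather than subunits, did not move alike. PSMD9 was higher in each comparison, at 0.81 ± 0.15, 0.72 ± 0.13 and 0.71 ± 0.13 over NT, Doxo and Doxo+Cyta. PSMD5 was called only over Doxo+Cyta, at 0.30 ± 0.10 (SE; adjusted p = 0.0183, edgeR). PSMD10 (chromosome X, 108084205 to 108091644 in GRCh38), also known as gankyrin, measured 40.4 and 41.0 CPM in NT, 34.3, 44.9 and 45.4 after Doxo, 41.4, 37.8 and 39.8 after Doxo+Cyta and 29.7, 33.0, 27.6 and 35.4 after Doxo+Cyta+DAC. Doxo replicate 4 fell within the range of Doxo+Cyta+DAC, and otherwise the Doxo+Cyta+DAC values were the lowest. The log2 fold change of Doxo+Cyta+DAC was -0.38 ± 0.14 (SE; adjusted p = 0.0379, edgeR) over NT, -0.40 ± 0.12 (SE; adjusted p = 0.0121, edgeR) over Doxo and -0.34 ± 0.12 (SE; adjusted p = 0.0301, edgeR) over Doxo+Cyta, and each of these calls rested on single libraries. The first was lost without NT replicate 1, NT replicate 2 (adjusted p = 0.160, edgeR) or Doxo+Cyta+DAC replicate 30 or 32. The one over Doxo was lost without Doxo replicate 5 or 6 (adjusted p up to 0.0663, edgeR). The one over Doxo+Cyta was lost without Doxo+Cyta replicate 19 or 22 or Doxo+Cyta+DAC replicate 30 or 32 (adjusted p up to 0.0906, edgeR). Of the 12 other tested genes within 2 Mb of PSMD10, 9 also had a negative log2 fold change over NT and over Doxo, with a median of -0.44 in each. Of the 21 around PSMD1, 13 were positive over NT with a median of 0.16, and of the 22 around PSMD11, 10 were positive with a median of -0.06. Around PSMB9, 70, 72 and 74 of 115 were negative over NT, Doxo and Doxo+Cyta, with medians of -0.21, -0.19 and -0.32. The part of these regions in the values of the genes was not tested.

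Among the activators, which cap the core in place of the regulatory particle, PSME3 showed the strongest rise of all 46 genes over Doxo+Cyta. PSME3 (chromosome 17, 42833142 to 42843760 in GRCh38), the nuclear activator, measured 108 and 114 CPM in NT, 110.2, 79.0 and 75.7 after Doxo, 64.4, 78.3 and 66.2 after Doxo+Cyta and 295, 315, 302 and 279 after Doxo+Cyta+DAC. Doxo+Cyta+DAC lay far above every other library, and Doxo+Cyta lay below NT in all 3 libraries. In Doxo, replicate 4 stood with NT, whereas replicate 6 stood in the range of Doxo+Cyta and replicate 5 just above it. Its log2 fold change of Doxo+Cyta+DAC was 1.42 ± 0.15 (SE; adjusted p = 1.01e-05, edgeR) over NT, 1.75 ± 0.13 (SE; adjusted p = 3.49e-07, edgeR) over Doxo and 2.10 ± 0.13 (SE; adjusted p = 7.98e-08, edgeR) over Doxo+Cyta. Relative to NT it was also lower in Doxo+Cyta, at -0.67 ± 0.15 (SE; adjusted p = 0.0451, edgeR), and at -0.33 in Doxo (adjusted p = 0.165, edgeR). The call in Doxo+Cyta held in 9 of 20 other settings and was lost without either NT library, among others (adjusted p up to 0.448, edgeR).

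PSME4, the large nuclear activator that has been tied to the degradation of acetylated histones, measured 108 and 107 CPM in NT, 104, 109 and 96.1 after Doxo, 100.4, 82.5 and 93.7 after Doxo+Cyta and 160.1, 188, 158 and 152 after Doxo+Cyta+DAC. It was higher in each Doxo+Cyta+DAC library than elsewhere, with log2 fold changes of 0.61 ± 0.12 (SE; adjusted p = 8.95e-04, edgeR) over NT and 0.83 ± 0.10 (SE; adjusted p = 1.35e-05, edgeR) over Doxo+Cyta. PSME1 and PSME2, which form the interferon-inducible activator together, were not called alike. PSME1 was called in no comparison (0.08, -0.12 and -0.26 over NT, Doxo and Doxo+Cyta) and measured 148 and 132 CPM in NT, 140.2, 171 and 173 after Doxo, 169, 209 and 154 after Doxo+Cyta and 145, 156, 139 and 152 after Doxo+Cyta+DAC. PSME2 measured 62.8 and 55.5 CPM in NT, 54.7, 45.8 and 49.5 after Doxo, 57.6, 87.9 and 53.5 after Doxo+Cyta and 97.3, 92.8, 82.1 and 81.2 after Doxo+Cyta+DAC, and was called higher in each comparison at 0.58 ± 0.18, 0.82 ± 0.16 and 0.41 ± 0.15. Its call over NT was lost without either NT library (adjusted p up to 0.139, edgeR) and that over Doxo+Cyta in 5 of 20 other settings, among them without Doxo+Cyta replicate 19 or 22 or Doxo+Cyta+DAC replicate 30 or 31 (adjusted p up to 0.178, edgeR). In Doxo+Cyta its replicate 20 overlapped the Doxo+Cyta+DAC libraries, and 6 pseudogenes carry its name. A call for 1 of this pair and not the other does not show that they differ, which was not tested.

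PSMF1, an inhibitor of the core in the test tube, measured 119 and 112 CPM in NT, 116, 143 and 146 after Doxo, 165, 140.5 and 150.0 after Doxo+Cyta and 117, 112, 124 and 102 after Doxo+Cyta+DAC. It was lower in Doxo+Cyta+DAC than in each Doxo+Cyta library, at -0.41 ± 0.11 (SE; adjusted p = 0.00427, edgeR), and was not called over NT (-0.02) or Doxo (-0.24). The assembly factors, which join into pairs that guide the formation of the alpha ring, differed among themselves. PSMG1 measured 98.9 and 83.5 CPM in NT, 79.0, 60.4 and 65.3 after Doxo, 78.2, 91.7 and 74.8 after Doxo+Cyta and 191, 172, 175 and 169 after Doxo+Cyta+DAC, with no overlap between Doxo+Cyta+DAC and the rest, and was higher at 0.95 ± 0.14, 1.37 ± 0.12 and 1.12 ± 0.12 (adjusted p = 8.85e-05, 9.41e-07 and 3.17e-06, edgeR). PSMG2, its partner, was called in none, with group means of 41.2 ± 4.76 CPM in NT, 45.5 ± 5.69 CPM in Doxo, 46.8 ± 2.22 CPM in Doxo+Cyta and 43.3 ± 2.96 CPM in Doxo+Cyta+DAC. PSMG3 was higher only over Doxo (0.80 ± 0.16, SE, adjusted p = 7.25e-04, edgeR), with group means of 23.7 ± 1.81 CPM, 16.7 ± 1.54 CPM, 22.7 ± 6.56 CPM and 29.2 ± 0.943 CPM in the same order.

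PSMG4 (chromosome 6, 3258928 to 3268066 in GRCh38), the partner of PSMG3, was the lowest in level and measured 6.33 and 5.42 CPM in NT, 3.49, 2.27 and 2.21 after Doxo, 4.02, 4.00 and 3.30 after Doxo+Cyta and 6.25, 7.70, 6.30 and 4.04 after Doxo+Cyta+DAC. Doxo lay below both NT libraries in all 3 replicates, and the log2 fold change of Doxo over NT was -1.15 ± 0.28 (SE; adjusted p = 0.0194, edgeR), a call that was lost without NT replicate 1, NT replicate 2, Doxo replicate 5 or Doxo replicate 6 (adjusted p up to 0.169, edgeR). That of Doxo+Cyta+DAC was 1.20 ± 0.24 (SE; adjusted p = 7.24e-04, edgeR) over Doxo and 0.69 ± 0.23 (SE; adjusted p = 0.0193, edgeR) over Doxo+Cyta, and was 0.05 over NT (adjusted p = 0.883, edgeR). PSMG4 lies at the end of the short arm of chromosome 6, and the genes around it were lower in Doxo as well. Of the 22 other tested genes within 2 Mb, 20 had a negative log2 fold change in Doxo over NT, with a median of -0.73, and of the 66 in the first 20 Mb of the chromosome 61 did, with a median of -0.64. In Doxo+Cyta over NT these medians were -0.45 and -0.44. In Doxo+Cyta+DAC over NT, where PSMG4 was at 0.05, 17 of 22 and 46 of 66 were negative, with medians of -0.56 and -0.43. The part of the region in the PSMG4 value was not tested.

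**Figure D5:**
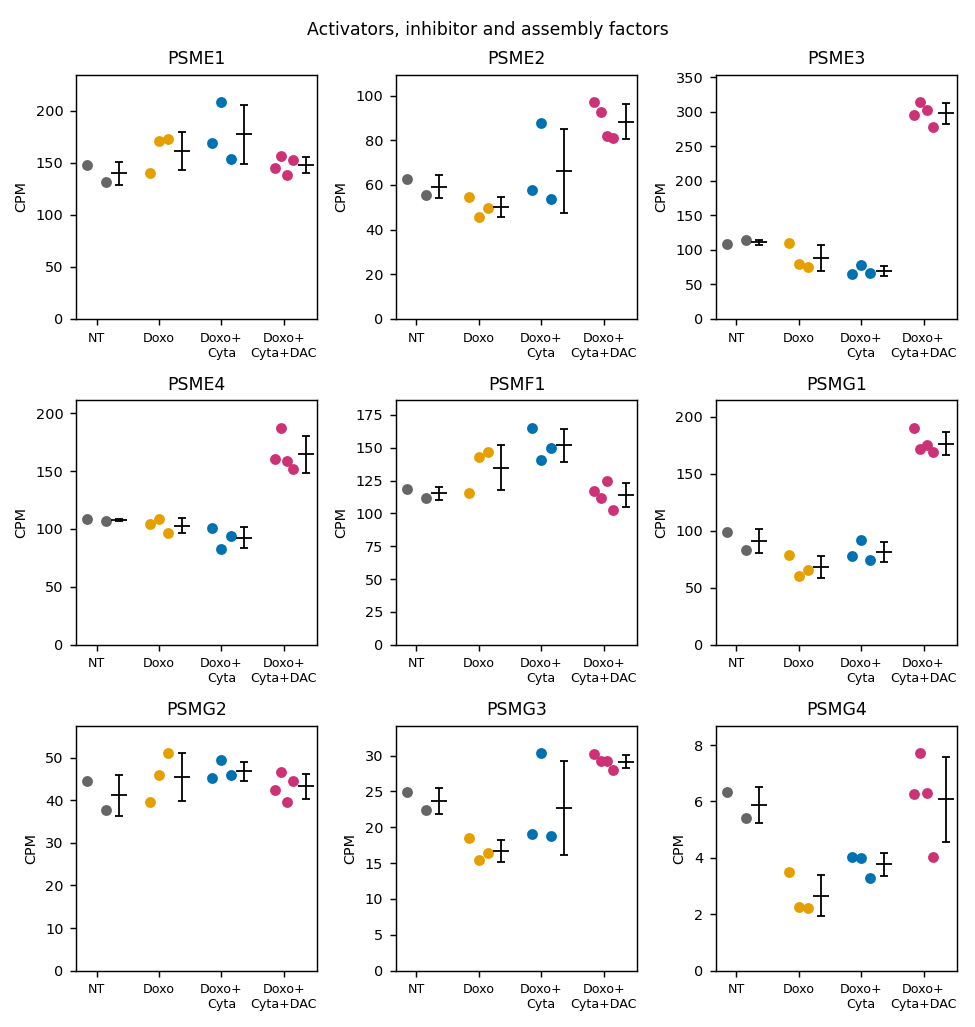
CPM (y axis, from 0) of the activators PSME1 to PSME4, the inhibitor PSMF1 and the assembly factors PSMG1 to PSMG4 in each library (points) by group (x axis), with mean ± SD in black. PSME3, PSME4 and PSMG1 are highest in Doxo+Cyta+DAC without overlap, PSME1 and PSMG2 overlap between groups, and PSMG4 is lowest in Doxo.

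After the regimens without decitabine, few proteasome genes were called relative to NT in the fit of all libraries, and few of all genes were. With 2 NT libraries, few calls do not show that the genes changed little. In Doxo over NT, 1 of 46 was called higher (PSMB10) and 1 lower (PSMG4), where 6.06% of all genes were higher and 4.63% lower, and the median log2 fold change was 0.06. In Doxo+Cyta over NT, 1 was higher (PSMB10) and 1 lower (PSME3), where 0.911% of all genes were higher and 0.551% lower, and the median was 0.04. Between Doxo+Cyta and Doxo none was called by edgeR, with a smallest adjusted p of 0.131, where 1.07% of all genes were higher and 2.32% lower. At an unadjusted p under 0.05 there were 8, 11 and 9 genes in these 3 comparisons, and DESeq2 also called none in the last. The libraries that stood apart weigh on these counts. Doxo over NT gave 4 calls without Doxo replicate 4, 6 without Doxo+Cyta replicate 20, which is in the fit but in neither group compared, and 0 without either NT library, Doxo replicate 5 or Doxo replicate 6. Without both Doxo replicate 4 and Doxo+Cyta replicate 20, 7 genes were higher in Doxo than in NT and 11 lower (18.2% and 19.2% of all genes). Those higher were PSMA6, PSMB10, PSMC1, PSMD7, PSMD8, PSME1 and PSMF1, and those lower were PSMA4, PSMA7, PSMB3, PSMB6, PSMD2, PSMD3, PSME2, PSME3, PSMG1, PSMG3 and PSMG4. With the same libraries left out, 3 genes were higher in Doxo+Cyta than in NT (PSMB9, PSMB10 and PSMF1) and 6 lower (PSMA4, PSMB2, PSMB3, PSMC3, PSMD14 and PSME3), where 6.07% of all genes were higher and 8.40% lower. The count for Doxo+Cyta over NT was 0 without either NT library, Doxo replicate 5 or 6, Doxo+Cyta replicate 19 or 22, or Doxo+Cyta+DAC replicate 33, and 1 without Doxo+Cyta+DAC replicate 30 or 32.

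Genes that act with the proteasome were followed in 4 lists, whose counts stand beside the shares of all genes called higher and lower, 24.9% and 23.7% over NT, 29.1% and 30.4% over Doxo, and 29.8% and 30.5% over Doxo+Cyta. Of 14 proteasome-associated proteins, 8 were higher and 2 lower in Doxo+Cyta+DAC than in NT, 8 and 4 than in Doxo, and 7 and 2 than in Doxo+Cyta. Over Doxo+Cyta the deubiquitinase USP14 (log2 fold change 1.14 ± 0.09) and the ubiquitin ligase UBE3C (1.29 ± 0.10) had the smallest p among those higher, and TXNL1 (-0.63 ± 0.11) and FBXO7 (-0.46 ± 0.10) among those lower. POMP, which guides the maturation of the core, was higher at 1.08, 0.67 and 0.84 over NT, Doxo and Doxo+Cyta. Of 14 genes around NFE2L1, 7 were higher and 5 lower than in NT, 6 and 6 than in Doxo, and 8 and 5 than in Doxo+Cyta. NFE2L1 itself measured 94.8 and 98.2 CPM in NT, 108, 114 and 106 after Doxo, 106, 84.8 and 109.6 after Doxo+Cyta and 157, 136, 159 and 149.7 after Doxo+Cyta+DAC, so that Doxo+Cyta+DAC lay above all other libraries, with log2 fold changes of 0.64, 0.46 and 0.59. Over Doxo+Cyta the segregase VCP (1.00 ± 0.09) and NFE2L2 (1.10 ± 0.15) were higher, and the ubiquitin ligase SYVN1 (-1.86 ± 0.17) and MAFG (-1.23 ± 0.14), a small partner of NFE2L1, were lower. The 17 genes of ubiquitin supply and shuttling were called about as often as all genes over Doxo+Cyta, with 5 higher, among them UFD1L (1.23 ± 0.13) and UBQLN4 (0.82 ± 0.09), and 5 lower, among them FAF1 (-0.51 ± 0.09), and were 5 and 2 over NT and 4 and 5 over Doxo.

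The 17 class I partners of the immunoproteasome fell more often than they rose. Of them, 3 were higher and 10 lower in Doxo+Cyta+DAC than in NT, 2 and 11 than in Doxo, and 2 and 11 than in Doxo+Cyta, with medians of -0.57, -0.85 and -0.66. In Doxo over NT 6 of them were higher and none lower, where 6.06% and 4.63% of all genes were, and in Doxo+Cyta over NT 1 was higher and none lower, where 0.911% and 0.551% were. HLA-F (-2.28 ± 0.14) and HLA-E (-2.10 ± 0.15) had the smallest p over Doxo+Cyta among those lower. TAP2 (1.05 ± 0.11), which pairs with TAP1 in the peptide transporter, and the chaperone PDIA3 (0.42 ± 0.09) were higher. HLA genes resemble each other and are listed on several contigs, so how the counting shared fragments among them is uncertain.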

How the data were processed

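RNA-seq libraries of regrown HEL cultures were taken as deposited. The authors trimmed the reads, aligned them with Bowtie2 2.2.8 to GRCh38 and counted fragments per gene with featureCounts 1.6.0 without regard to strand, so the deposited counts are raw and not scaled. The deposited length column, which the authors' counting wrote, sums exon bases over all contigs, and for RPKM the copy on the primary chromosome was used instead. Of 26485 genes, 4 with a missing count were left out.

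Groups follow the labels. The proteasome genes, the lists of other genes and the tests were chosen with earlier results of these data known. Counts were filtered by filterByExpr, scaled by TMM and fitted over all 12 libraries with the quasi-likelihood test of edgeR 4.0.16 (R 4.3.3), with Benjamini-Hochberg adjustment over 14164 genes and a call at an adjusted p under 0.05. Standard errors were taken from the log2 fold change and the F statistic. Per-library values were given for PSMB5 to PSMB10, for up to 3 called genes per direction and comparison with the smallest p, and for activators, inhibitor and assembly factors at least by group. Other genes were described by class, with examples of the largest and smallest changes chosen after their values were seen, as were the medians of neighbouring genes. From the other lists, up to 2 per direction with the smallest p over Doxo+Cyta were named, with NFE2L1 and POMP, and 1 gene that this rule names is not reported here. Ratios were tested by exact permutation. Alternatives were DESeq2 1.42.0, RLE and upper-quartile scaling, library sizes without the 100 genes with the most counts, no filter, at least 10 counts in every library, only the groups compared, and leaving out each library. The floor of 3 counts covers counting error only. The fit was tested on simulated data. Motifs were searched in 250 bases before RefSeq start sites. Figures were drawn with matplotlib 3.10.9.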

Additional observations from a re-analysis of the deposited data

Results flagged for a closer look

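In 3 genes, 1 of the 4 Doxo+Cyta+DAC libraries lay far from the others, with the gap to its nearest neighbour taking most of the range of the group. The share was 0.912 for PSMA2 in replicate 32, 0.858 for PSMB5 in replicate 30 and 0.866 for PSMD5 in replicate 31. Chance alone gives about 1 such group in 20, and 46 genes were looked at.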

How the results depend on the processing

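The calls in the 3 comparisons with Doxo+Cyta+DAC stayed within 1.5 times the full count under every alternative run, with 30 to 37 genes called over NT, 35 to 39 over Doxo and 32 to 40 over Doxo+Cyta when 1 library was left out, 36 to 40, 37 to 41 and 34 to 41 under the other settings, and medians with 1 library left out of 0.55 to 0.70, 0.62 to 0.67 and 0.53 to 0.71. The other comparisons depended on single libraries. Leaving out 1 library gave 0 to 6 genes called in Doxo over NT (6 without Doxo+Cyta replicate 20, 4 without Doxo replicate 4, and 0 without NT replicate 1, NT replicate 2, Doxo replicate 5 or Doxo replicate 6), where the full set gave 2, and 0 to 3 in Doxo+Cyta over NT (3 without Doxo replicate 4), where the full set also gave 2. The medians then ranged from 0.00 to 0.08 in Doxo over NT, from -0.09 to 0.10 in Doxo+Cyta over NT and from -0.06 to 0.14 in Doxo+Cyta over Doxo. Doxo+Cyta over NT gave 1 call with upper-quartile scaling and 0 in a fit of only the groups compared, and the cause was not tested. Without both Doxo replicate 4 and Doxo+Cyta replicate 20, chosen after seeing the data, 18 genes were called in Doxo over NT, 9 in Doxo+Cyta over NT at a median of -0.0900, and 1 in Doxo+Cyta over Doxo at a median of -0.0738.

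The tested ratio differences, with 1 library left out, ranged for PSMB8 to PSMB5 from -0.72 to -0.70 against Doxo and from -0.83 to -0.74 against Doxo+Cyta, for PSMB9 to PSMB6 from -1.94 to -1.76 and from -2.004 to -1.72, and for PSMB10 to PSMB7 from -0.91 to -0.79 and from -0.93 to -0.83. With 3 against 3 or 4 against 2 libraries the exact test cannot pass the threshold. No called gene changed sign, and genes that were not called did, PSMD11 in Doxo over NT in 12 of 20 settings. The following values are those of the genes described library by library. In Doxo+Cyta over NT, the PSMB6 log2 fold change was -0.0223 with no filter and ranged from -0.21 to 0.13 with 1 library left out (-0.04 without NT replicate 2), and PSMB7 ranged from -0.00927 to 0.203. In Doxo+Cyta over Doxo the ranges were -0.0695 to 0.199 for PSMB10, -0.0287 to 0.141 for PSMB5 and -0.0710 to 0.142 for PSMB7, each lowest without Doxo+Cyta replicate 20. PSMB8 over NT in Doxo+Cyta+DAC ranged from -0.142 to 0.0384 (highest without NT replicate 1). Without both libraries PSMB10 was at -0.13, PSMB5 at -0.0658, PSMB7 at -0.0767 and PSMB8 at -0.0417 in Doxo+Cyta over Doxo, and PSMB6 at -0.205 and PSMB7 at -0.00914 in Doxo+Cyta over NT. Of the values followed for PSMB5 to PSMB10 and for the called genes with the smallest p, 940 kept direction and side, 36 fell below the threshold, 10 passed it and 14 changed sign. No paired analysis was possible because the groups share no replicate numbers. With 2 NT libraries, leaving one out leaves a lone sample that is assumed to vary like the other groups. At these depths PSMA8 and PSMB11 were not detectable above 3 counts.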
